A study of Mus musculus with 2 samples.

Results

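Osteocalcin and matrix Gla protein are the small Gla proteins of mineralized and calcifying tissues. They are encoded by *Bglap* and *Mgp*, 2 of the 19465 genes counted in the Visium assay, and these genes were chosen by name and followed spot by spot. The assay binds pairs of gene-specific probes to the transcripts of a 5 μm section of formalin-fixed tissue and captures them on a grid of barcoded spots. A spot is 55 μm wide, the centers of neighbors are 100 μm apart, and the unique molecular identifier (UMI) of a molecule keeps it from being counted again. The samples were 1 femur section from a Control mouse and 1 from a Loaded mouse. Both came from female bone cell reporter mice, which carry *Ibsp*-eGFP and *Acp5*-mCherry, operated on at 12 weeks of age with a femoral defect held by an external fixator, and the sections were taken at 17 weeks of age, 5 weeks after surgery. After bridging at 3 weeks the Loaded femur received cyclic loading at a force set for each mouse, from a range of 8 to 16 N over the loaded mice, at 10 Hz for 3000 cycles, while the Control femur was sham-loaded at 0 N, and tissue was collected 10 hours after the last session. As each condition had 1 section from 1 mouse, no test was run. Every interval given here is a 95% interval that covers counting error only and holds no variation between mice. For shares of spots the interval takes each spot as an independent draw.

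Both proteins carry glutamic acid residues that a vitamin K-dependent carboxylase converts to γ-carboxyglutamic acid (Gla), and these residues bind calcium and mineral. Osteocalcin is secreted by osteoblasts and osteocytes, is stored in bone mineral and serves as a late marker of bone formation. Matrix Gla protein is made by chondrocytes, vascular smooth muscle cells and fibroblasts, binds bone morphogenetic proteins, and restrains calcification of cartilage and vessel walls.

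The 2 genes lie on different chromosomes. *Bglap* (ENSMUSG00000074483) lies on the minus strand of chromosome 3 at 88383501 to 88384464 of GRCm38, and *Mgp* (ENSMUSG00000030218) on the minus strand of chromosome 6 at 136872435 to 136875823. Beside *Bglap* on the same strand lie the near copies *Bglap2*, at 88377736 to 88378699, and *Bglap3*, at 88368616 to 88372743. The coding sequences of the 3 osteocalcin genes are 288 bases long, and they are shown because a probe pair for one can bind another. Bases in capitals differ from *Bglap* at the same position. The sequences were read from GENCODE M21 transcripts.
Bglap: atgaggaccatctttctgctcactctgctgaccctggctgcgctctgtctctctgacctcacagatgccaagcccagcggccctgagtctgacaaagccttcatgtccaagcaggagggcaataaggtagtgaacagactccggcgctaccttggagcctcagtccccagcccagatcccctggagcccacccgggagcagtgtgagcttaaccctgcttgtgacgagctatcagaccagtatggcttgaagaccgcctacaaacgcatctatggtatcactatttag
Bglap2: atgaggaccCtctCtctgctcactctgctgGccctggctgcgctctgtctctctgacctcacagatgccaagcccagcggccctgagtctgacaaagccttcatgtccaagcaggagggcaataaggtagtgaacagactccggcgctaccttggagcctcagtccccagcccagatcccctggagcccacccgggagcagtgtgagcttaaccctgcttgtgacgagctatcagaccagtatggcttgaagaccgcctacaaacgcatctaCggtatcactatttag
Bglap3: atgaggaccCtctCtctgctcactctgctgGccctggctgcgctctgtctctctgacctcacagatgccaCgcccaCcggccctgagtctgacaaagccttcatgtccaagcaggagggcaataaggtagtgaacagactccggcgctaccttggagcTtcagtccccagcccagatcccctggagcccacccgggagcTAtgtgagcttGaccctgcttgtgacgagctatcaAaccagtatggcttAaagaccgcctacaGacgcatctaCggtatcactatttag

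*Bglap2* differs from *Bglap* at 4 of these bases and *Bglap3* at 13, so that 98.6% and 95.5% of the bases are identical. Neither was analysed here as a gene of its own, and the probe sequences were not used here. Each *Bglap* value below therefore stands for osteocalcin transcripts whose gene of origin is uncertain, although bone osteocalcin in the mouse is known to come from *Bglap* and *Bglap2*. The first 300 of the 315 coding bases of *Mgp*, shown to set the other counted transcript beside them, are as follows.
Mgp: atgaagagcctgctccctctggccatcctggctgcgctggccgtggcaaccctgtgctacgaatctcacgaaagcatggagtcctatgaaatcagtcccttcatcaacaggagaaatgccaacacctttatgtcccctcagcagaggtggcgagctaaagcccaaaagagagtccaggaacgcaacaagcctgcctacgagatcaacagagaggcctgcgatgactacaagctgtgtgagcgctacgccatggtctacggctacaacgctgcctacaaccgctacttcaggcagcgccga

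The sections held 1962 and 1436 spots under tissue with 9002147 UMIs in Control and 4910716 in Loaded. Bone spots were those of the study's own barcode list, which covers bone at the fracture site between the inner pins of the fixator. Bone beyond these pins is not on it, so spots off the list can be bone too. The list held 131 spots in Control with 557259 UMIs and 146 in Loaded with 409020 UMIs, with medians of 3478 and 2621 UMIs. All were found, and all passed the limits of at least 500 UMIs and 250 genes. Transcripts of surrounding tissue were present in these spots too. Skeletal muscle genes made up 16.8% of the UMIs of Control bone spots and 8.72% of those of Loaded bone spots, and values for this list stand beside the results below. Markers of osteocytes, the cells embedded in bone, were scarce in the Control bone spots, with 28 UMIs of *Dmp1*, 19 of *Sost*, 3 of *Mepe*, 2 of *Phex* and none of *Fgf23*.

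Osteocalcin gave the fewer UMIs of the 2 transcripts in Control bone spots and the more in Loaded bone spots. *Bglap* summed to 126 UMIs over the 131 Control spots (interval 105 to 150) and to 1078 over the 146 Loaded spots (1015 to 1144). *Mgp* summed to 2611 UMIs in Control (2512 to 2713) and to 657 in Loaded (608 to 709). Summed over the whole regions, the genes thus changed places between the sections. *Bglap* made up 4.60% of their joint UMIs in Control (3.85% to 5.46%) but 62.1% in Loaded (59.8% to 64.4%). This share needs no size factor, as both genes were counted in the same spots. It is a share of UMIs and not of molecules in the tissue, because probe pairs differ in efficiency between genes, so that only its differences between places and sections are read here.

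Spot by spot, *Bglap* ranged in Control from 0 to 10 UMIs, with a median of 1 and an upper quartile of 1. In Loaded it ranged from 0 to 62, with a median of 5 and quartiles of 3 and 7.75. Zero counts were found in 64 Control spots and in 6 Loaded spots, and 10 or more UMIs in 2 and 30 spots. The ranges overlapped, and the lower quartile of Loaded lay above the upper quartile of Control. For *Mgp* the Control spots ranged from 0 to 191 UMIs, with a median of 9 and quartiles of 4 and 24. The Loaded spots ranged from 0 to 30, with a median of 3 and quartiles of 1 and 5. The quartile ranges of *Mgp* overlapped only between 4 and 5 UMIs, and the Control median lay above the Loaded upper quartile. The long upper tail belonged to Control, where 61 spots held 10 or more UMIs against 15 in Loaded. Both transcripts were unevenly spread, since the 14 highest spots of Control held 49.2% of the *Bglap* and 44.2% of the *Mgp* UMIs, and the 15 highest of Loaded 41.2% and 39.7%.

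With scran size factors, which scale each spot for its depth, *Bglap* was at 0.817 UMIs per unit of size factor in Control and 8.78 in Loaded. This is a log2 ratio of 3.42 (3.16 to 3.70), or 10.7-fold, and ranked 25 from the top among the 10003 genes with at least 10 UMIs over both regions. *Mgp* was at 16.9 and 5.35, a log2 ratio of -1.66 (-1.79 to -1.54), or 3.17-fold lower in Loaded, and ranked 301 from the bottom. Ratios past 2-fold were common between these sections, as 10.6% of the genes were at least 2-fold higher in Loaded and 9.81% at least 2-fold lower, with a median log2 ratio of 0.02. Both members lay past 2-fold, *Bglap* near the top of its direction and *Mgp* well inside its own.

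The *Mgp* ratio depended on where in the Control bone the spots lay. The left and right sides of each bone region were each cut midway along the shaft into a lower and an upper block, which gave 4 blocks. Left, right, lower and upper are named by position on the spot grid. Sides and blocks of the same name therefore do not correspond between the sections. In Control, *Mgp* was at 10.2 UMIs per 10000 in the left lower block (8.97 to 11.6), at 23.5 in the left upper (18.9 to 28.8), at 44.7 in the right lower (41.0 to 48.6) and at 107 in the right upper block (102 to 112). In Loaded the blocks of these names were at 19.0, 20.1, 15.6 and 10.1 per 10000. The Control blocks spanned 10.4-fold and the Loaded blocks 1.98-fold, and the 2 sets overlapped, since the Control left lower block lay below all Loaded blocks but one. Without the Control right upper block the log2 ratio of *Mgp* was -0.66, and without the Control left lower block it was -2.16.

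The *Bglap* blocks did not overlap between the sections. In Control they were at 2.26 (left lower), 4.91 (left upper), 1.32 (right lower) and 2.33 per 10000 (right upper), and in Loaded at 30.4, 17.7, 27.4 and 27.5. The lowest Loaded block was thus above the highest Control block. How many of all genes separate in this way was not counted, and blocks of 1 section are no replicates. The separation is therefore given as a description. Leaving out any 1 block kept the log2 ratio of *Bglap* between 3.21 and 3.58. In the same block order, the *Bglap* share of the joint UMIs was 18.1%, 17.3%, 2.88% and 2.14% in Control. In Loaded it was 61.6%, 46.9%, 63.6% and 73.0%. The Loaded left upper block thus held more *Mgp* than *Bglap*, with 169 against 149 UMIs. The pooled Control share of 4.60% describes neither side.

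**Figure D1:**
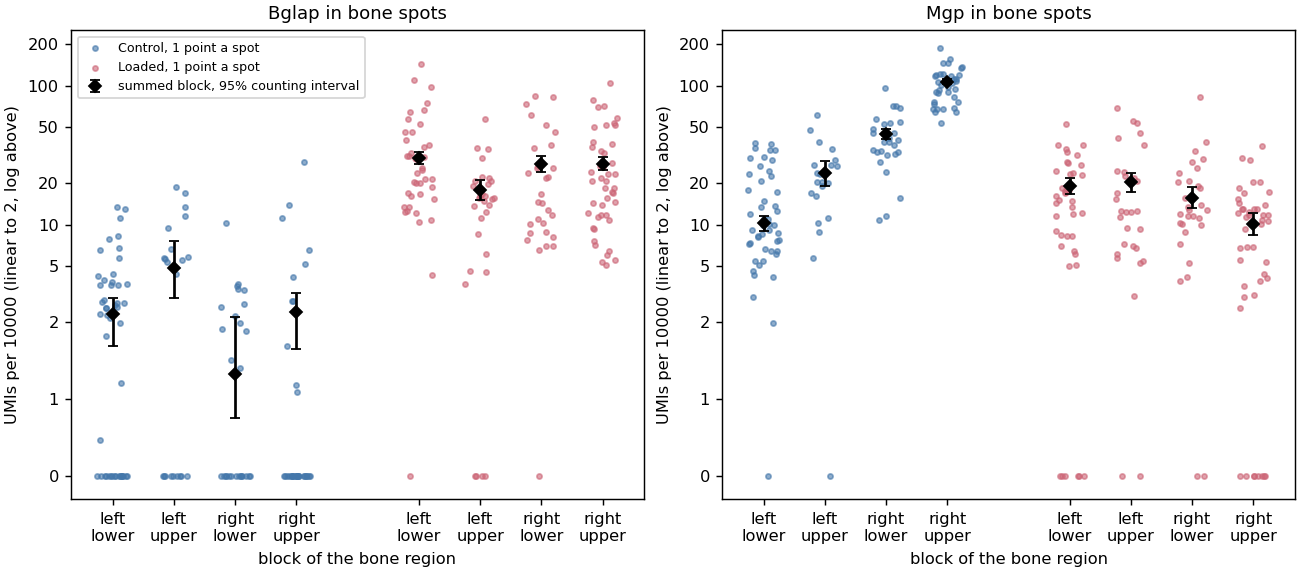
UMIs per 10000 of *Bglap* (left) and *Mgp* (right) in the 4 blocks of each bone region, on an axis that is linear up to 2 and logarithmic above. Points are single spots (Control blue, Loaded red) and diamonds are the summed blocks with 95% counting intervals, so that the Loaded *Bglap* blocks between 17.7 and 30.4 stand above the Control blocks while the *Mgp* blocks of Control spread from 10.2 to 107.

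Skeletal muscle transcripts moved opposite to *Mgp* in the Control section. The muscle share of the 4 Control blocks was 30.0%, 14.0%, 7.54% and 5.31%, in the order in which *Mgp* was given above, and over the 131 spots the Spearman correlation of the *Mgp* level with the muscle share was -0.87. Within the left side alone it was -0.71 (69 spots) and within the right side -0.49 (62 spots). These correlations are across spots of 1 section that share tissue and a total, and are given as a description. In Loaded the same correlation was 0.05 over all bone spots. Within the left side it was 0.22 (71 spots) and within the right side 0.20 (75 spots).

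Bone spots of like muscle share were therefore set side by side. Below 5% muscle, *Mgp* was at 106 UMIs per 10000 in 16 Control spots (98.9 to 112) and at 14.2 in 27 Loaded spots (12.1 to 16.5). Between 5 and 10% it was at 70.8 in 43 Control spots and at 18.6 in 50 Loaded spots. Between 10 and 20% it was at 26.0 in 34 Control spots (22.4 to 30.1) and at 15.7 in 67 Loaded spots (13.9 to 17.8), a log2 ratio of -0.78 (-1.06 to -0.50). At 20% or more it was at 8.61 in 38 Control spots (7.41 to 9.94) and at 10.2 in 2 Loaded spots (3.74 to 22.2). *Mgp* was thus higher in Control in the 3 bands below 20%, most so in the band with the least muscle, and above 20% Loaded had too few spots to compare. Over all spots with 10% or more muscle the log2 ratio was 0.01 (-0.22 to 0.24), but this set is made of unlike spots, as 38 of its 72 Control spots and 2 of its 69 Loaded spots had 20% or more. Most Control spots above 10% lay on the left side, with 68 of 72, whereas most of the Loaded ones lay on the right, with 58 of 69. In Control, muscle share, side and position cannot be told apart.

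*Bglap* was higher in Loaded in each band of muscle share below 20%. Below 5% muscle it was represented by 3 UMIs among 90026 in Control, or 0.333 per 10000 (0.0687 to 0.974), and by 380 UMIs in Loaded, or 32.5 per 10000 (29.3 to 35.9). Between 5 and 10% it was at 2.69 and 26.4, and between 10 and 20% at 3.52 and 21.9. At 20% or more it was at 2.29 in 38 Control spots and at 28.9 in 2 Loaded spots, which are too few to compare. Among the bands, the Control bone spots with the least muscle thus held the most *Mgp* and the least *Bglap*. Of these 16 Control spots 12 lay in the right upper block, and of the 27 Loaded spots below 5% 19 lay in the left lower block. Muscle share and position are therefore not separated in this band. The log2 ratio of *Bglap* was 6.65 below 5% muscle, where it rests on those 3 UMIs, 3.30 between 5 and 10%, 2.58 between 10 and 20%, and 2.84 at 10% or more.

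Along the shaft, *Mgp* in Control was graded on one side. Each side was divided into 5 equal lengths from the lower to the upper end of the bone region. On the right side *Mgp* was at 31.3, 42.7, 69.5, 117 and 114 UMIs per 10000, and in all 62 right spots *Mgp* was found. On the left side it was at 6.33, 18.6, 31.7, 20.7 and 10.3. The right side thus held more *Mgp* than the left in each length, and the right values were highest in the fourth length while the left ones were highest in the middle. In Loaded the left side lay between 16.8 in the first and 26.7 in the fourth length and the right side between 19.9 in the first and 6.73 in the fifth.

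On the right side of Control, most osteocalcin UMIs lay in 1 length. The right side held 54 of the 126 UMIs and the left side 72. In the middle length of the right side *Bglap* summed to 41 UMIs, or 6.46 per 10000 (4.64 to 8.77), and was found in 12 of 15 spots. The right lengths beside it were at 0.489 and 0.742, and the uppermost right length held no *Bglap* UMI in 12 spots and 46210 UMIs. The 3 Control bone spots with the most *Bglap*, at 10, 10 and 8 UMIs, lay within this length between 1.49 and 1.58 mm from the lower end, and an outer spot next to the bone at 1.66 mm held 18. On the left side of Control the lengths were at 1.85, 3.28, 4.47, 3.56 and 6.16 per 10000, with overlapping intervals. In Loaded the highest length was the lowest on the left side, at 64.8 per 10000 (49.2 to 83.8) from 58 UMIs in 7 spots, and the left side was at 4.59 (1.49 to 10.7) at the upper end. The right side of Loaded stayed between 19.9 and 31.5.

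**Figure D2:**
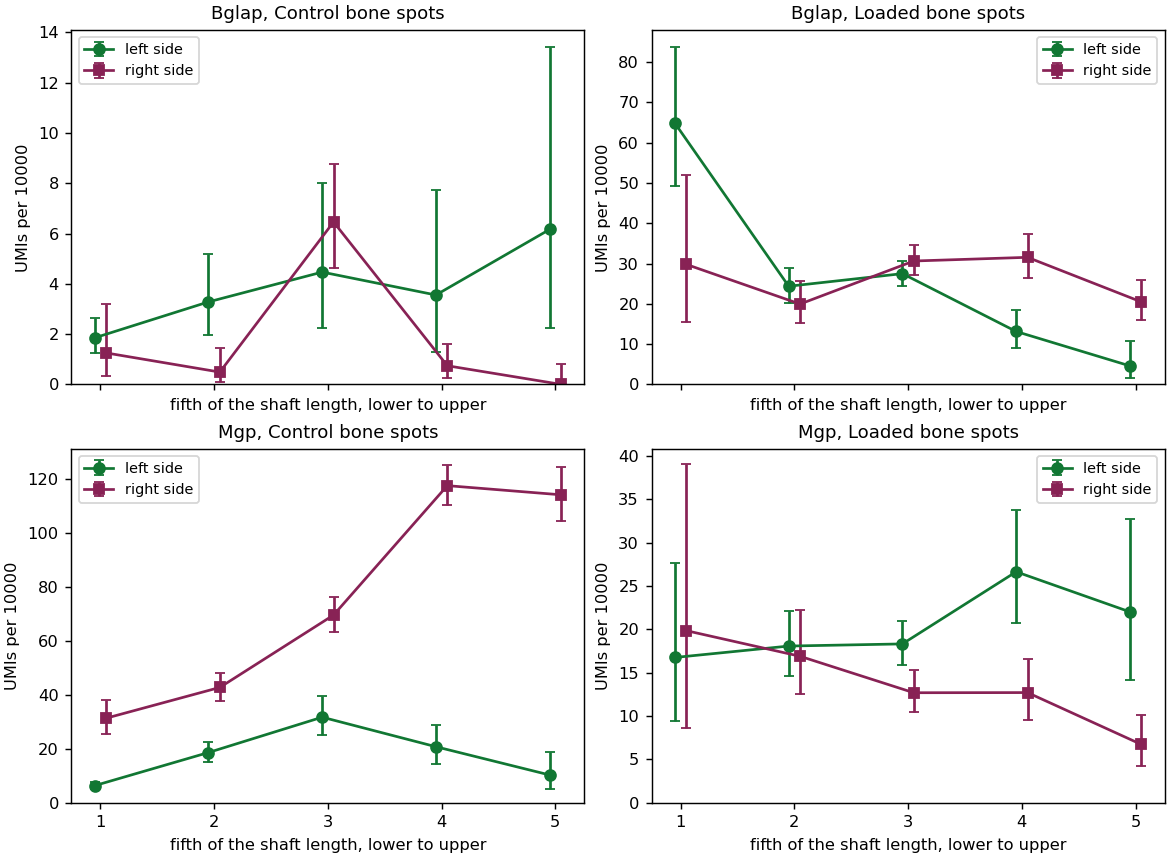
UMIs per 10000 of *Bglap* (top) and *Mgp* (bottom) in 5 equal lengths of the bone region from its lower to its upper end, for the left (circles) and right (squares) sides of Control and Loaded, with 95% counting intervals and a separate vertical scale in each panel. *Mgp* on the Control right side goes from 31.3 to 117 and *Bglap* on the Loaded left side from 64.8 down to 4.59.

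Neighboring spots resembled each other to different degrees. Moran's I, which is near 0 when adjacent spots are unrelated and near 1 when they are alike, was computed after the values were seen for the level of every gene with at least 100 UMIs over adjacent pairs of bone spots. In Control it was 0.87 for *Mgp*, rank 8 of 778 genes, and 0.22 for *Bglap*, rank 259, with a median of 0.15 over the genes. In Loaded it was 0.40 for *Bglap*, rank 17 of 506 genes, and 0.21 for *Mgp*, rank 61, with a median of 0.06. Each section thus had 1 of the 2 transcripts among its most spatially ordered genes, *Mgp* in Control and *Bglap* in Loaded. Sparse counts lower this measure, and *Bglap* in Control had the fewest.

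Detection of osteocalcin differed strongly between the sections at equal depth. When every spot was thinned to 1000 UMIs, *Bglap* was found in 29 of 131 Control bone spots (22.1%, 15.4% to 30.2%) and in 114 of 131 Loaded bone spots (87.0%, 80.0% to 92.3%), with 15 shallower Loaded spots and no Control spot left out. Outer muscle-rich spots, outside the 2 sides of bone and at least 5 steps from it, served as the background and were chosen after the values were seen. They gave 2 of 65 spots in Control (3.08%, 0.375% to 10.7%) and 6 of 44 in Loaded (13.6%, 5.17% to 27.4%), with median depths of 7654 and 3924.5 UMIs against 3478 and 2621 in bone. The bone shares of both sections lay above this background with intervals apart. These intervals take spots as independent, although neighboring spots resembled each other, so that they are too narrow to the extent that spots are alike. All spots of this background lay on the left side in Control and on the right side in Loaded. The background planned beforehand was all muscle-rich spots at least 5 steps from bone. It gave 13.3% in Control (10.9% to 16.05%) and 14.6% in Loaded (11.5% to 18.3%). Its Control interval overlaps that of Control bone, and its Loaded interval lies below that of Loaded bone. The Control set takes in spots beyond the ends of the bone region, where *Bglap* was higher than on the outer side. *Mgp* was found in 85.5% of Control bone spots (78.3% to 91.0%) and in 70.2% of Loaded bone spots (61.6% to 77.9%), against 27.7% and 38.6% of the outer and 33.2% and 42.3% of all muscle-rich spots. Both bone shares of *Mgp* were above these values. Without thinning, *Bglap* was found in 51.1% and 95.9% and *Mgp* in 98.5% and 87.7% of the bone spots of Control and Loaded, and in all muscle-rich spots *Bglap* in 38.0% and 27.9% and *Mgp* in 72.2% and 70.6%. In the outer ones it was *Bglap* in 18.5% and 29.5% and *Mgp* in 75.4% and 84.1%.

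Within single bone spots the 2 transcripts showed little relation. In Control 66 spots held both, 63 *Mgp* alone, 1 *Bglap* alone and 1 neither, and *Mgp* had the higher count in 126 of 131 spots. In Loaded 123 held both, 17 *Bglap* alone, 5 *Mgp* alone and 1 neither. There *Bglap* had the higher count in 89 of 146 spots, *Mgp* in 38, and 19 were equal. The majority gene of a spot thus followed the section. The Spearman correlation of the levels (UMIs per 10000) was -0.20 over the Control spots and -0.01 over the Loaded spots. With raw UMIs the Loaded value was 0.29, a scale on which deeper spots raise both genes. Within the sides it was 0.19 (left) and -0.15 (right) in Control and -0.08 and 0.06 in Loaded. When Loaded spots were ordered by *Mgp* level and divided into 3 sets of near equal size, *Bglap* was at 26.8, 21.8 and 29.9 UMIs per 10000 in the lowest, middle and highest set, where *Mgp* was at 4.25, 12.2 and 28.3. In Control such sets held *Bglap* at 2.08, 2.30 and 2.43 and *Mgp* at 7.41, 33.4 and 98.0. The range of *Mgp* across these sets was fixed by the ordering. Across them *Bglap* did not rise or fall steadily in Loaded, and its intervals overlapped in Control. The sets average over single spots, which ranged from 0 to 28.1 *Bglap* UMIs per 10000 in Control and from 0 to 144 in Loaded.

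**Figure D3:**
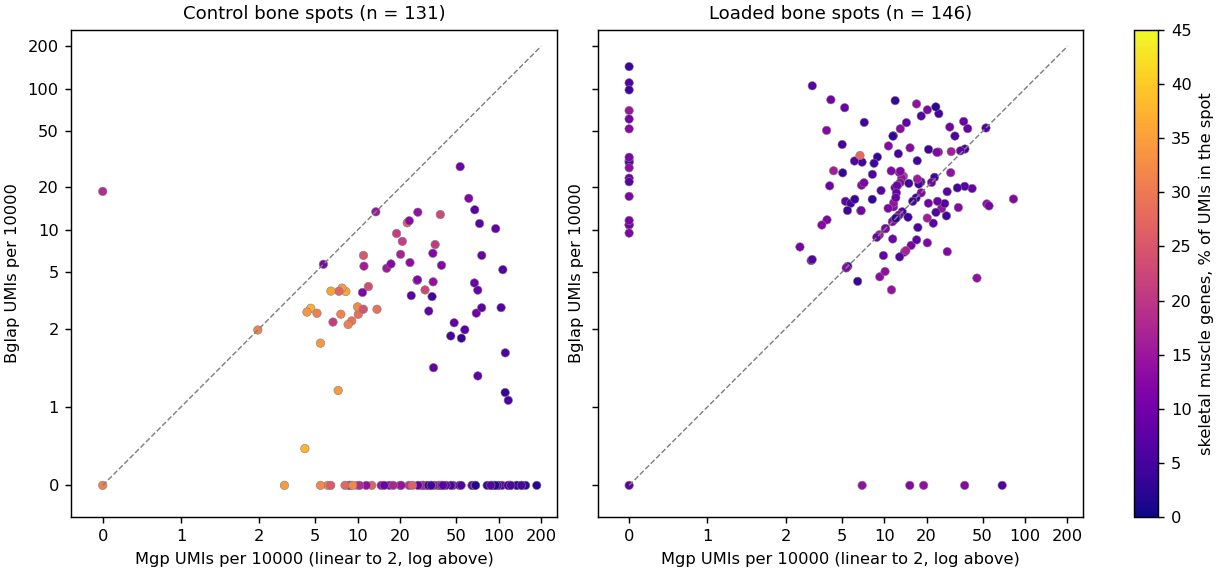
UMIs per 10000 of *Mgp* (horizontal) and *Bglap* (vertical) in each bone spot of Control (n = 131) and Loaded (n = 146), on axes linear up to 2 and logarithmic above, with the color giving the share of skeletal muscle genes and the dashed line equal levels. Nearly all Control spots lie below the line, 63 of them with *Mgp* but no *Bglap*, and most Loaded spots lie above it.

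The single spots with the highest counts differed in the same way. The Control spot with the most *Mgp* held 191 UMIs of it and no *Bglap*, among 13046 UMIs in the right upper block, and the next held 113 and 108 *Mgp* with 0 and 1 *Bglap*. In Loaded the spot with the most *Bglap* held 62 UMIs of it and 9 of *Mgp* in the right lower block, and the next held 60 with 22 and 34 with 1. The Loaded spot with the most *Mgp* held 30 UMIs of it and 8 of *Bglap*.

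The genes most like each member were taken as the 5 with the highest Spearman correlation over bone spots among genes with at least 200 UMIs in that region, 296 genes in Control and 180 in Loaded. For *Mgp* in Control they were *Sparc* (0.88), *Col3a1* (0.85), *Col1a1* (0.84), *Ccn2* (0.79) and *Col5a2* (0.79), which encode osteonectin, 3 collagen chains and a matricellular growth factor. For *Bglap* in Loaded they were *Col1a2* (0.64), *Col1a1* (0.64), *Sparc* (0.54), *Col11a2* (0.44) and *Col5a2* (0.44), so that *Sparc*, *Col1a1* and *Col5a2* stood in both sets. The type I collagen genes were thus near *Mgp* in Control and near *Bglap* in Loaded, and *Col1a1* correlated with the other member at -0.10 for *Bglap* in Control and 0.19 for *Mgp* in Loaded. For *Mgp* in Loaded the values were low, led by *Bgn* (0.31), *Fn1* (0.30) and *Ctsb* (0.29). For *Bglap* in Control, with a median of 1 UMI per spot, they were also low and led by the muscle genes *Tnni2* (0.38), *Ryr1* (0.34) and *Mylpf* (0.30). The correlation of *Bglap* with the muscle share was 0.28 over all Control bone spots. Its sign differed by side, at -0.18 within the left (69 spots) and 0.31 within the right (62 spots). The lowest correlation of *Mgp* in Control was with the muscle gene *Tnnc2* (-0.86).

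Compared with the rest of each section, 1 member stood out in the listed bone of each. Levels here are UMIs per 10000 of all UMIs. All other spots past the limits served as the comparison, 1767 in Control and 1285 in Loaded, and these can hold bone that the list does not cover. *Mgp* in Control was at 46.9 in bone and 9.05 elsewhere, a log2 ratio of 2.37 (2.31 to 2.44) and rank 178 from the top of 14683 genes. *Bglap* in Control was at 2.26 in bone and 1.74 elsewhere, a log2 ratio of 0.38 (0.10 to 0.64), which was below the median of 0.52 over all genes, and 28% of the genes were at least 2-fold higher in bone. *Bglap* in Loaded was at 26.4 in bone and 3.10 elsewhere, a log2 ratio of 3.09 (2.97 to 3.21) and rank 19 of 13849 genes. *Mgp* in Loaded was at 16.06 and 15.95, a log2 ratio of 0.01 (-0.11 to 0.13) against a median of 0.29, and 16.6% of the genes were at least 2-fold higher. The Control ratio of *Bglap* turned to -0.13 with scran size factors over all spots and to -0.99 when each spot had equal weight, so that no direction can be given for it. Over all other spots *Bglap* was 16.2% of the joint UMIs in Control (15.4% to 16.9%) and 16.3% in Loaded (15.5% to 17.0%). These pooled values hide differences in opposite directions between the places described below, as *Bglap* was 8.43% of the pair in the cavity of Control and 38.0% in that of Loaded, 3.49% and 18.7% in outer spots, but 25.6% and 11.6% beyond the ends. Of all UMIs of a member in its section, bone spots held 25.5% of *Mgp* and 7.83% of *Bglap* in Control, and 8.38% of *Mgp* and 43.6% of *Bglap* in Loaded, while they held 6.19% and 8.33% of all UMIs.

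The decline with distance was set by place. Other spots were divided into those between the 2 sides of bone (cavity), those outside them (outer) and those beyond the ends of the bone region along the shaft, and each by steps on the spot grid to the nearest bone spot. *Mgp* in Control was as high in outer spots 1 step away as in bone, at 50.8 (48.5 to 53.2), then at 24.6, 4.94 and 3.60 at 2, 3 to 4 and 5 to 8 steps. Most of this came from the right side, with 1687 of the 1832 UMIs at 1 step, where outer spots were at 82.0 at 1 step and 55.7 at 2 steps, against 9.35 and 3.85 on the left. The muscle share of these spots was 5.43% and 6.52% on the right and 33.1% and 38.9% on the left. Further out, 54 of the 57 outer spots at 3 to 4 steps and all 63 at 5 to 8 steps lay on the left. There *Mgp* was at 4.01 and 3.60, against 38.2 in the 3 right spots at 3 to 4 steps. The pooled fall with distance thus also holds a change of side. In the cavity of Control *Mgp* was at 24.4, 18.5, 17.7 and 7.67.

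*Mgp* in Loaded was higher just outside the bone than in it. Outer spots 1 step away were at 29.9 (27.9 to 31.9) against 16.1 in bone, with 34.8 on the left and 23.3 on the right. Further out they were at 18.1, 10.4 and 6.85, and all 44 spots of the last value lay on the right side. In the cavity 1 step away *Mgp* was at 7.66 (6.45 to 9.03), and 8.56, 8.66 and 13.6 further in. At 1 step *Mgp* in Loaded was thus higher in outer spots than in bone and lower in the cavity than in bone. In Control the cavity at 1 step was below bone on the right side, at 37.0 against 80.3. On the left side of Control it was at 11.3 (8.71 to 14.5) against 12.1 in bone (10.8 to 13.5), with overlapping intervals. Beyond the ends of the Loaded bone region it was at 6.07 at 1 step, then at 15.1, 23.1 and 22.3, and at 15.6 over 8 steps away.

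*Bglap* in Loaded was high in bone spots and next to them, and low from 2 steps on the outer side. It was at 11.9 in outer spots 1 step away (10.7 to 13.2), at 1.23 at 2 steps and at 0.972 at 5 to 8 steps. In the cavity it was at 8.95 at 1 step, at 3.91 at 2 steps and then level, at 3.78 and 3.84. Cavity spots thus kept about as much *Bglap* far from the bone list as at 2 steps, and more than outer spots at 2 steps or more. Their muscle share was between 5.23% and 6.17%, and that of the outer spots between 12.3% and 34.3%. Beyond the ends *Bglap* was at 15.2, 10.9, 5.80, 2.68 and 1.47 with increasing distance. In Control the outer spots went from 1.77 at 1 step to 0.633, 0.253 and 0.237, and the cavity lay between 1.37 and 1.95 at all distances with overlapping intervals.

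**Figure D4:**
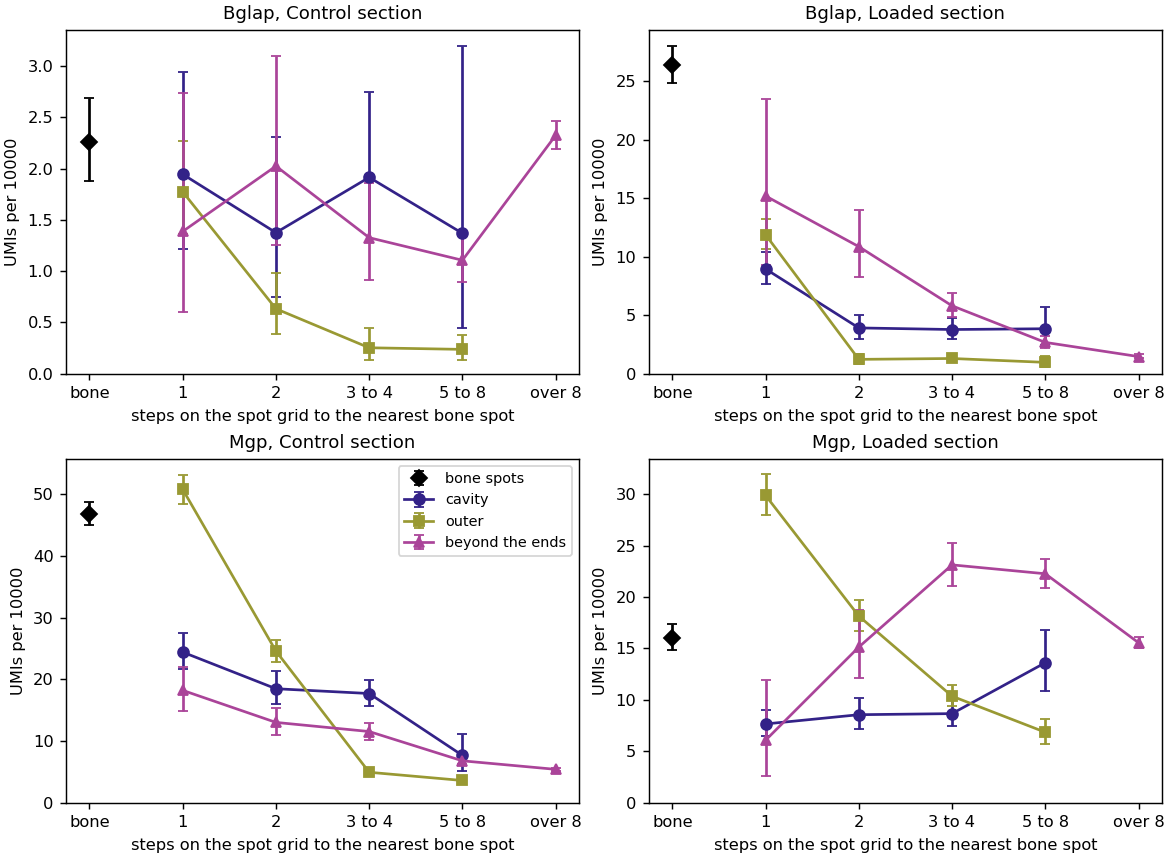
UMIs per 10000 of *Bglap* (top) and *Mgp* (bottom) in bone spots (diamond) and in cavity, outer and beyond-the-ends spots by steps to the nearest bone spot, with 95% counting intervals and a separate vertical scale in each panel; zones of under 5 spots are not drawn. *Bglap* in Loaded falls from 26.4 in bone to 1.23 in outer spots at 2 steps, and *Mgp* in outer spots at 1 step is at 50.8 in Control and 29.9 in Loaded.

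Both transcripts were abundant in places that the bone list does not cover. The Control bone region ended at 2.89 mm from its lower end. Between 4.5 and 6.5 mm from that end lay 931 of the *Bglap* UMIs outside the bone list (63.4%). The level there was 2.27 per 10000 in the first 0.5 mm and 5.80, 13.1 and 15.1 in the next. The spot with the most *Bglap* outside the list held 20 UMIs among 1315 with no *Mgp*, at 5.49 mm. Osteocalcin was thus counted off the list at several times the level of the listed bone spots of the same Control section. *Bglap* was 39.5% of the joint UMIs of the pair in this stretch. Over the 1097 Control spots beyond the ends and more than 8 steps away, the level was 8.92 per 10000 in the 410 spots with a muscle share below 10% and 1.22 in the 687 spots above it. Those 410 spots held mineralized matrix genes at 3.49% and osteocyte markers at 0.0555% of UMIs. The listed Control bone spots held 2.27% and 0.00933%, and those on the right side, with a muscle share of 6.26%, held 3.58% and 0.00493%. The 410 spots also held chondrocyte markers at 0.338%, adipocyte markers at 0.409% and erythroid markers at 5.54%. In the listed Control bone spots these were at 0.0187%, 0.0258% and 2.47%. Whether the far spots lay in bone was not tested.

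In Loaded the *Mgp* counterpart lay below the bone region. Between 1.5 and 0 mm before its lower end, *Mgp* summed to 2546 UMIs, at 25.4 per 10000 (24.4 to 26.4) with *Bglap* at 1.79. This stretch held 35.5% of all *Mgp* outside the bone list. The 3 Loaded spots with the most *Mgp* anywhere, at 145, 124 and 113 UMIs with 0, 1 and 0 *Bglap*, lay there in a line with the left side of the bone. Their counts were well above the highest Loaded bone spot and like those of the upper right side in Control.

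**Figure D5:**
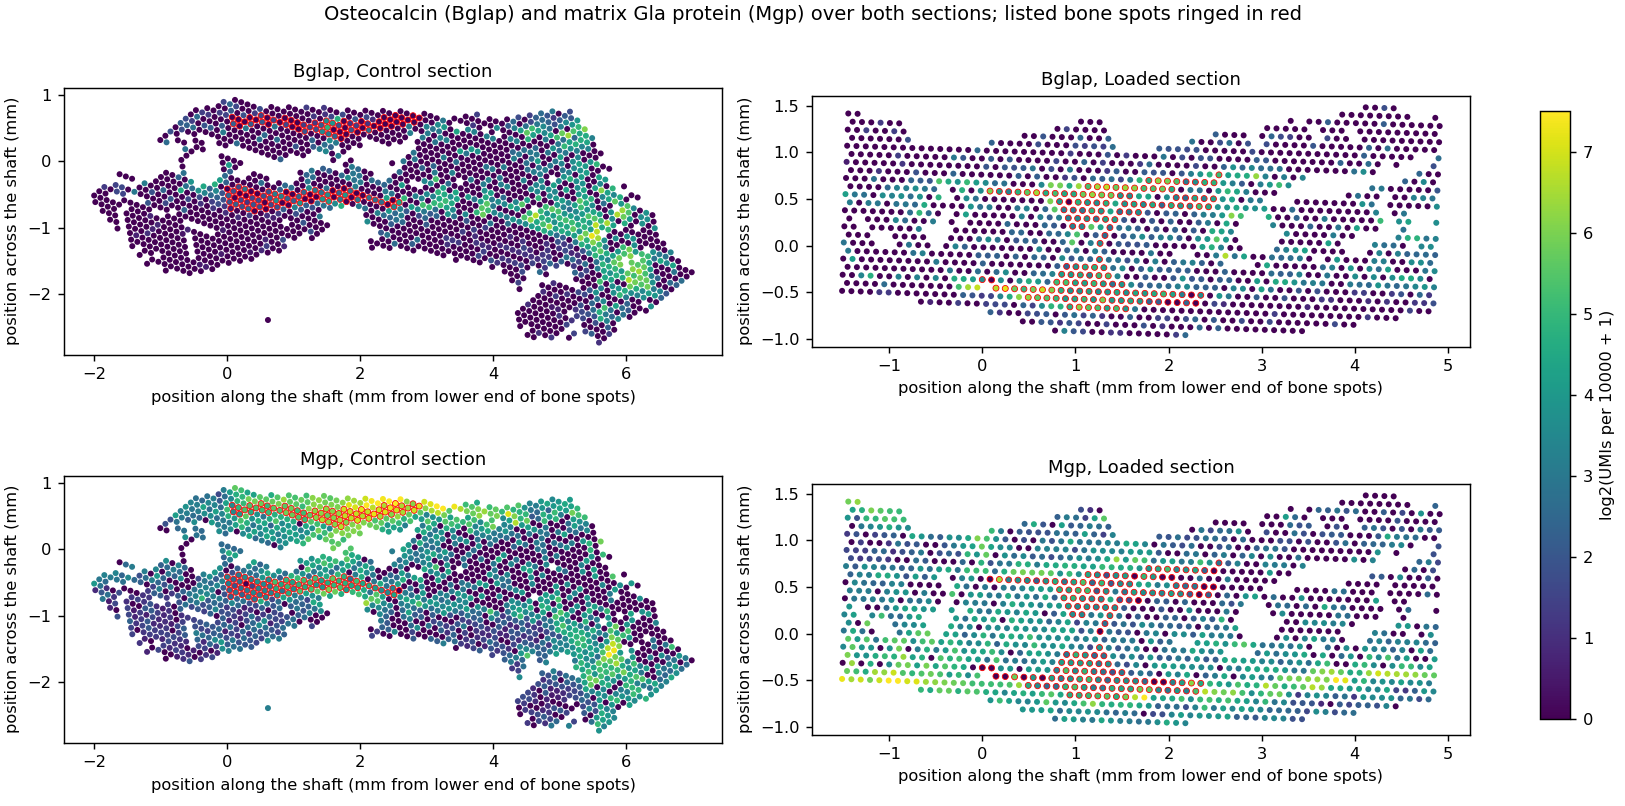
Level of *Bglap* (top) and *Mgp* (bottom), as log2(UMIs per 10000 + 1), in every spot past the limits of the Control (left) and Loaded (right) sections, placed in mm along and across the shaft with the left side at negative values across, and with listed bone spots ringed in red. *Bglap* is high in the ringed spots of Loaded and, in Control, beyond 4.5 mm, and *Mgp* is high along the right side of Control and along the left side below the bone region of Loaded.

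Genes that act on Gla proteins differed less between the bone regions than the members did. All 7 genes of the vitamin K cycle and carboxylation had at least 10 UMIs, and none lay past 2-fold, with a median log2 ratio of 0.74 beside 0.02 for all genes. As only 10.6% of all genes were at least 2-fold higher and 9.81% lower, none of 7 is near these shares. *Vkorc1*, the reductase that regenerates vitamin K, went from 32 to 51 UMIs, a log2 ratio of 1.00 (0.33 to 1.69) just under the limit, and *Calu*, encoding an inhibitor of the carboxylase system, from 64 to 43 (-0.25, -0.84 to 0.33). The carboxylase gene *Ggcx*, named after its values were seen, had 37 and 30 UMIs, a ratio of 0.02 (-0.72 to 0.76). The total of these 7 genes was 0.0301% of UMIs in Control and 0.0406% in Loaded, which limits what could be seen.

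Of 15 other Gla protein genes 13 were counted and 4 had enough UMIs. None of the 4 lay past 2-fold, which is near the shares of all genes (10.6% higher and 9.81% lower). *Gas6*, a ligand of TAM receptors, had 408 and 217 UMIs (-0.58, -0.83 to -0.34), and the anticoagulant cofactor gene *Pros1* 56 and 33 (-0.44, -1.10 to 0.21). *Gas6* correlated with *Mgp* at 0.51 in Control. *Ucma*, the Gla protein of cartilage, had no UMI in either bone region. *Furin*, a convertase that acts on osteocalcin, had 46 and 26 UMIs, and the osteocalcin receptor genes *Gprc6a* and *Gpr158* had 1 UMI and none in Control and none in Loaded.

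At least 2-fold higher in Loaded were 10.6% of all genes. Among regulators of the osteocalcin gene this held for 4 of 7 genes with enough UMIs, with a median log2 ratio of 1.13. These were *Runx2*, which binds the osteocalcin promoter (55 to 96 UMIs, 1.13), *Sp7* or osterix (13 to 43, 2.05), the vitamin D receptor *Vdr* (7 to 17, 1.61) and *Dlx5* (15 to 55, 2.20). The intervals of *Runx2* (0.64 to 1.64) and *Vdr* (0.26 to 3.12) reached below 2-fold. Those of *Sp7* (1.13 to 3.07) and *Dlx5* (1.36 to 3.13) did not. *Atf4* (0.61) and *Cebpb* (-0.56) lay within 2-fold. Of the mineralized matrix genes 7 of 9 were past 2-fold higher, with a median of 2.20, from *Col1a1* (1.36) and *Col1a2* (1.66), through *Phospho1* (2.20), *Alpl* (2.60) and *Dmp1* (2.94), to *Mepe* (4.27) and *Phex* (4.46), the last from 2 UMIs in Control. *Ibsp* (0.50) and *Sparc* (0.58) lay within 2-fold. *Bglap*, at 3.42, lay above 7 of these 9 genes. Several of them were singled out by the study on these same sections, so that their direction is not independent evidence.

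For *Mgp* the genes set beside it were a partner list and other inhibitors of mineralization. The partner list holds bone morphogenetic proteins, receptors of these proteins (*Acvrl1* and *Bmpr2*) and matrix proteins, so not all of its members bind matrix Gla protein. With 10.6% of all genes past 2-fold higher and 9.81% lower, 1 gene past it in a short list is not read as a result about the list. Of 5 genes of the partner list with enough UMIs 1 was past 2-fold lower, the receptor *Bmpr2*, from 27 to 5 UMIs (-2.11, -3.84 to -0.71), and the median was -0.45. *Fn1*, encoding fibronectin, had 911 and 405 UMIs (-0.84) and *Eln*, encoding elastin, 115 and 67 (-0.45). *Fn1* correlated with *Mgp* at 0.72 in Control and 0.30 in Loaded. Of 3 inhibitors with enough UMIs, *Spp1* or osteopontin was past 2-fold higher, from 520 to 1174 UMIs (1.50, 1.35 to 1.65), while *Enpp1* (0.68) and *Ank* (-0.10) lay within 2-fold. *Spp1* and *Mgp* thus lay past 2-fold in opposite directions.

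Markers of chondrocytes and vascular smooth muscle cells, which make *Mgp*, were few in both bone regions. Fibroblasts, another source, had no list of their own. The counts past 2-fold below stand beside 10.6% of all genes higher and 9.81% lower. Chondrocyte markers made up 0.0187% of the UMIs in Control and 0.0819% in Loaded, with 2 of 5 genes past 2-fold higher (*Col11a2*, from 49 to 283 UMIs, and *Col2a1*, from 20 to 33) and 1 lower (*Acan*, from 23 to 7), and *Col10a1* and *Matn3* had no UMI in either. *Col11a2* is also expressed by osteoblasts. Vascular smooth muscle markers made up 0.0380% and 0.0240%, with 1 of 5 lower (*Acta2*, from 78 to 24). Tendon and periosteum markers made up 0.423% and 0.219%, with 3 of 8 lower (*Thbs4*, *Comp* and *Postn*). In Control the 8 genes correlated with *Mgp* to unlike degrees. The values were 0.77 (*Thbs4*), 0.74 (*Comp*), 0.66 (*Fmod*), 0.53 (*Postn*), 0.32 (*Tnmd*), 0.23 (*Scx*), 0.08 (*Dpt*) and -0.007 (*Tnxb*). In the Control blocks the summed list went from 0.109% in the left lower to 0.931% in the right upper block, the same order as *Mgp*. In the Loaded blocks it lay between 0.195% and 0.248%. The order was not particular to this list. Macrophage markers (0.0362% to 0.119%), other Gla protein genes (0.0447% to 0.134%) and the *Mgp* partner list (0.0665% to 0.334%) followed it in Control too. The muscle share ran in reverse, from 30.0% to 5.31%. The part of any of these lists in the *Mgp* values was not tested.

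Among the other marker lists, 4 of 4 osteocyte genes were past 2-fold higher in Loaded and 7 of 8 granulocyte genes, against 10.6% of all genes. Lower in Loaded were 16 of 22 skeletal muscle genes and 5 of 5 Schwann cell genes, against 9.81% of all genes. Adipocyte genes had 1 of 3 past 2-fold higher, and osteoclast (8), endothelial (6), erythroid (5) and macrophage (5) genes had none in either direction. In spots of this size a gene's sum can differ because fewer cells of a type were present or because each held less RNA, and these cannot be told apart.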

How the data were processed

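Visium data of 2 mouse femur sections, 1 Control and 1 Loaded, were analysed. The authors sequenced the probe libraries and counted them with SpaceRanger 2.0.0 against mm10, per the submitters' processing notes, and deposited raw UMI counts of 19465 genes in all spots under tissue, without normalization. Gene positions and coding sequences were taken from GENCODE M21 (GRCm38) by Ensembl identifier. The members and gene lists were chosen with earlier results of these data known, and 1 gene of a list is not reported here.

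Bone spots came from the study's barcode list, and groups from the sample labels. The shaft direction of each section was the one that gave the 2 sides of bone the least width. 557 spot barcodes occurred in both sections, as they mark positions of the slide grid. Sums over bone spots were divided by summed scran size factors (R 4.3.3, scran 1.30.0), which came to 154 and 123, and levels within a section by UMI totals. Other spots needed 500 UMIs and 250 genes. Genes needed 10 UMIs over the regions compared. Named genes of each list were those past 2-fold and up to 2 of the most counted others. Since the spots of 1 section are no replicates, the study's test on them was left out, and its fold changes and p-values were not used. Intervals are exact Poisson (sums), Clopper-Pearson (shares) and exact conditional binomial (ratios), at 95%, from scipy 1.17.1 in Python 3.11.15 (pandas 2.3.3, numpy 2.4.6; figures in matplotlib 3.10.9). Ratios and intervals were tested on simulated counts. As alternatives, TMM factors (edgeR 4.0.16) or library totals replaced scran, the 20 most abundant genes were taken out of the totals, spots were weighted equally, and limits on spots or muscle share, other thinning depths and leaving out each block were tried. The bands of muscle share above 5%, the outer muscle-rich background, the lengths of 0.5 mm along the shaft and Moran's I were added after the values were seen. Strain regions and section images were not analysed here.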

Additional observations from a re-analysis of the deposited data

How the results depend on the processing

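No paired analysis was possible because each condition had 1 section and no result came from a test. The directions of *Bglap* and *Mgp* in Loaded over Control were kept with library totals, with TMM factors, without the 20 most abundant genes in the totals, with spots weighted equally and with a limit of 1000 UMIs per spot, none of which moved a value past its counting interval. With only bone spots below 5% muscle the log2 ratios were 6.65 and -2.85. With bands above 5%, chosen after the values were seen, the spots of 5 to 10% muscle gave *Mgp* at -1.92, with spots of 10 to 20% *Bglap* was at 2.58 and *Mgp* at -0.78, and with spots of 10% or more *Bglap* was at 2.84 and *Mgp* at 0.013. The last set pools unlike spots, as 38 of its 72 Control spots but 2 of its 69 Loaded spots had 20% muscle or more. Leaving out 1 block at a time gave 3.21 to 3.58 for *Bglap* and -2.16 to -0.66 for *Mgp*.

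Bone over other spots depended on the comparison spots and on the weighting. For *Bglap* in Control it was -0.13 with scran size factors over all spots, 1.50 without spots beyond the ends and -0.99 with equal weight. For *Bglap* in Loaded it was 2.90 with scran size factors, 3.62 without spots next to bone, 2.59 without spots beyond the ends and 2.77 with equal weight. For *Mgp* in Control the same 4 alternatives gave 1.87, 2.77, 1.47 and 1.86, and totals without the 20 most abundant genes gave 2.14. For *Mgp* in Loaded, scran size factors gave -0.18, leaving out spots beyond the ends 0.19 and equal weight 0.14.

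Thinning to 500 UMIs gave *Bglap* in 65.8% of Loaded bone spots and *Mgp* in 69.5% of Control and 49.3% of Loaded bone spots. No thinning gave *Bglap* in 51.1% and 95.9% and *Mgp* in 98.5% and 87.7%. The *Bglap* share of the joint UMIs was 0.315% in Control and 69.6% in Loaded below 5% muscle and 5.84% in Control with equal weight, and with 1 block left out it lay between 2.99% and 9.18% for Control and between 58.5% and 65.6% for Loaded. The Spearman correlation of the members was 0.29 in Loaded with raw UMIs, and with 1 block left out it lay between -0.25 and -0.017 for Control and between -0.08 and 0.05 for Loaded. The cause of these shifts was not tested. The 126 *Bglap* UMIs of the Control bone region limit what can be said of its spread there, and 1 section a condition holds no variation between mice.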
